A study of Mus musculus with 8 samples.

Results

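The genes described here encode the nuclear subunits of respiratory complexes II, III, IV and V and cytochrome c. Members were chosen by symbol: Cyc1, Cycs, Sdha to Sdhd, and every symbol that begins with Uqcr, with Cox and a digit from 4 to 8, or with Atp5. The rule found 52 of the 22430 genes in the count table, and the 50 with a mean count over 5 were analysed. Cox8c had no count in any library and Cox7b2 had at most 2, and both were left out. The samples were 4 young adult (6m) and 4 aged (24m) males of the inbred mouse strain C57Bl/6JRj, with no genetic change or treatment named, to ask how the brain transcriptome changes with age. Each of the 8 mice gave 1 ONT (nanopore) library, whose tissue the sample titles call whole brain and the protocol in the labels a brain hemisphere. By the methods the RNA molecules were read directly, whereas the labels name a directional poly(A) library kit. Each value averages over all cell types of this tissue, and fewer cells of a type and less RNA per cell cannot be told apart. Only males of 1 strain at 2 ages were used.

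The respiratory chain sits in the inner mitochondrial membrane. Complex II (succinate dehydrogenase) passes electrons from succinate to ubiquinone, complex III (cytochrome bc1) passes them on to cytochrome c, and complex IV (cytochrome c oxidase) hands them to oxygen. Complexes III and IV pump protons, and complex V, the ATP synthase, lets them flow back to make ATP. Complex II is encoded entirely in the nucleus, whereas complexes III, IV and V also hold subunits made inside the mitochondrion. In the brain this machinery supplies most of the ATP that neurons spend on ion pumping and synaptic transmission.

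Counts on genes added up to between 573152 and 1255424 per library. For the 9375 genes whose mean count exceeded 5, 24m was set against 6m by the quasi-likelihood test of edgeR after TMM scaling, and a gene is said to have fallen or risen where its p, adjusted by Benjamini-Hochberg over these genes, was at most 0.05. By this rule 9.41% of the tested genes fell and 12.3% rose. With library sizes alone in place of TMM, the median log2FC of all tested genes moved from -0.0032 to 0.10, and the share of risen genes among all called genes moved from 56.7% to 75.7%. Levels are given as CPM (counts scaled by TMM to a common library size), in the order of replicates 1 to 4 at each age, and means are given ± SD with n = 4 libraries per age. Aged replicate 1 held the highest CPM of the aged libraries for 31 of the 50 members, and the values without it are given below.

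With age as the comparison, 24 of the 50 members fell, against 9.41% of the tested genes, 0 rose, against 12.3%, and 26 did not pass the test in either direction. The median log2FC of the members was -0.27, which is a level 17.1% lower at 24m, beside -0.0032 for all tested genes. A log2FC below 0 was fitted for 45 of the 50. Complex III held 6 fallen genes of 9, complex IV 8 of 17, complex V 10 of 19, complex II 0 of 4, and cytochrome c was 1 gene that did not pass. The changes were small: no member reached the study's second threshold, an absolute log2FC of at least 0.58, which 4.16% of tested genes passed in the downward direction. Every aged library lay below every young adult library for 21 members, against 9.90% of tested genes, and above it for 0 members, against 11.2% of tested genes. For the rising direction, 0 members had an unadjusted p under 0.05, and DESeq2 on raw counts called 0.

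**Figure D1:**
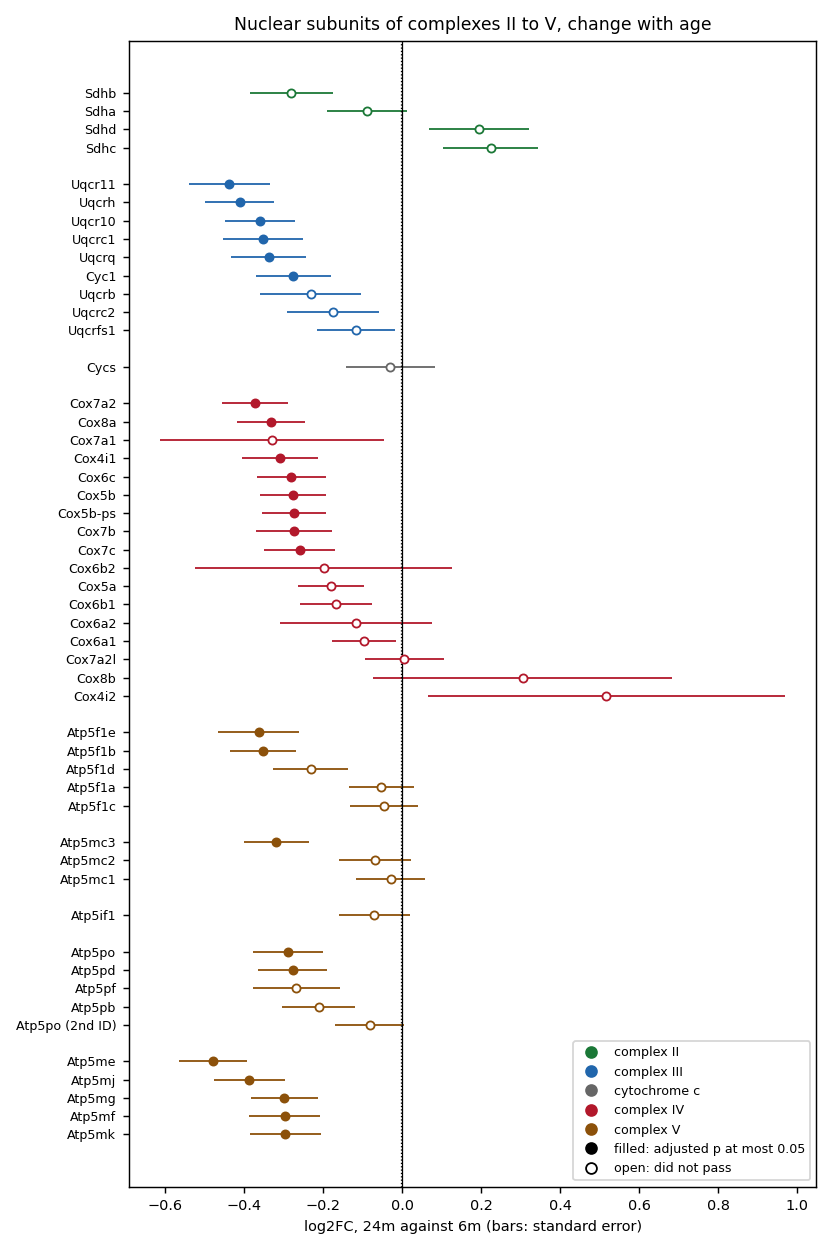
Each point is the fitted log2FC of 1 member between 24m and 6m (x axis, log2 scale) and each bar its standard error; members are grouped by complex and, in complex V, by part of the enzyme, the solid line marks 0 and the dotted line the median of all tested genes. Filled points passed the test, all of them between -0.48 (Atp5me) and -0.26 (Cox7c), and the widest bars belong to Cox4i2, Cox8b, Cox6b2 and Cox7a1.

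The members are abundant and short genes. Their median mean count was 583 per library, against 23.5 for all tested genes, and 45 members had a mean count of at least 100. Among all tested genes with at least 100 counts, 25.0% fell and the median log2FC was -0.13. Among those that also had a coding length of at most 500 bases, 35.7% fell, with a median log2FC of -0.21. By the same 2 limits, 19 of 29 members fell, with a median of -0.28. The 50 rows are not 50 independent measurements either: without Cox5b-ps and the second Atp5po identifier, both described below, 23 of 48 fell.

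The number of fallen members changed when single libraries were left out, in fits that each had 1 library fewer. It was 11 without aged replicate 2 (against 5.63% of tested genes), 12 without aged replicate 3 (5.81%), 13 without young adult replicate 1 (5.59%) and 15 without young adult replicate 4 (6.26%). It was 17 without young adult replicate 2 (6.85%), 18 without young adult replicate 3 (6.26%), 24 without aged replicate 4 (7.91%) and 26 without aged replicate 1 (12.2%). Calls over all tested genes, 9.41% lower with every library, thus moved with the same libraries. The median log2FC moved less, from -0.28 without aged replicate 4 to -0.22 without aged replicate 3. The 9 members that fell in all 8 of these fits were Uqcr11, Uqcrh, Uqcr10, Cox7a2, Cox8a, Atp5f1b, Atp5mc3, Atp5me and Atp5mj.

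Complex II had no fallen gene under TMM with all libraries and age as the only term. Sdhb fell without aged replicate 1, or with the replicate number added as a block. In complex II the flavoprotein subunit Sdha and the iron-sulfur subunit Sdhb form the head in the matrix. Sdhc and Sdhd anchor this head in the membrane and hold the haem and the quinone site. The anchor genes had positive log2FC and the head genes negative ones (Sdha positive with library sizes alone). None of the 4 passed under TMM with all libraries and age as the only term. The sum of the 4 was 1284 ± 37.9 at 6m and 1215 ± 125 at 24m, and the ages overlapped.

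Sdhb, at chr4:140688502-140709380 on GRCm39 (plus strand), held 624, 599.6, 589 and 536 CPM in the young adult libraries and 599, 471, 385 and 484 CPM in the aged libraries. Aged replicate 1 lay inside the young adult range and the other aged libraries below it. Sdhb did not pass with all libraries and age as the only term (log2FC -0.28 ± 0.11 (SE), adjusted p = 0.0574). Of the 8 fits without 1 library, it fell only in that without aged replicate 1 (log2FC -0.38, adjusted p = 0.00125). Without aged replicate 3 it came closest to no change (log2FC -0.18, adjusted p = 0.26). Sdhc held 195, 260.4, 226 and 249.6 CPM at 6m and 342, 263, 244 and 243 CPM at 24m. Its highest value was in aged replicate 1 and its lowest in young adult replicate 1, the ages overlapped, and it did not pass (log2FC 0.22 ± 0.12 (SE), adjusted p = 0.19). With library sizes alone, Sdhc passed as higher at 24m (log2FC 0.33, adjusted p = 0.043), the single member to do so in any of the fits. Sdhd (log2FC 0.20 ± 0.13 (SE), adjusted p = 0.29) and Sdha (log2FC -0.089 ± 0.10 (SE), adjusted p = 0.58) did not pass either. The promoter of Sdhb, the complex II gene with the smallest p, is printed as the 120 bases before and 20 after its RefSeq start site, at chr4:140688462-140688601 (GRCm39, plus strand), with the letters of an NRF1 and an ETS motif in capitals.
Sdhb: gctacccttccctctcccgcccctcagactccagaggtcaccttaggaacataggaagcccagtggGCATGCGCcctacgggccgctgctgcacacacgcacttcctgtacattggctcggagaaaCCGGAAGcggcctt

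In complex III all 9 genes had a log2FC below 0, and 6 of them fell. It is built around the core proteins Uqcrc1 and Uqcrc2, carries electrons through the Rieske iron-sulfur protein Uqcrfs1 and the cytochrome c1 haem protein Cyc1, and is closed by the small subunits Uqcrb, Uqcrq, Uqcrh, Uqcr10 and Uqcr11. Uqcrh, the hinge protein next to cytochrome c1, had the smallest p of the complex. The summed CPM of the 9 genes were 6316 ± 68.1 at 6m and 4987 ± 516 at 24m, with no overlap between the ages.

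Uqcrh, at chr4:115923314-115932296 (minus strand), held 1089.7, 1146, 1073 and 1179 CPM at 6m and 939, 796, 769.5 and 873 CPM at 24m. All aged libraries lay below all young adult libraries (log2FC -0.41 ± 0.088 (SE), adjusted p = 0.00165). Uqcr11, the smallest subunit, held 1151, 1097, 1047 and 1054 CPM at 6m and 1022, 676, 753 and 772 CPM at 24m. Its ages did not overlap, although aged replicate 1 came close to the young adult values (log2FC -0.44 ± 0.10 (SE), adjusted p = 0.00344). Uqcr10, another small subunit, held 826, 739, 809 and 828 CPM at 6m and 699, 627, 568 and 606 CPM at 24m. These too did not overlap (log2FC -0.36 ± 0.089 (SE), adjusted p = 0.00504). Uqcrq, which lies close to cytochrome b, held 1038, 1023, 979 and 973 CPM at 6m and 967, 764, 729 and 725 CPM at 24m. Aged replicate 1 stood just under the lowest young adult library and the other aged libraries far below (log2FC -0.34 ± 0.094 (SE), adjusted p = 0.0122).

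Of the core proteins, 1 fell and 1 did not pass. Uqcrc1 fell, with mean CPM of 873 ± 30.1 at 6m and 687 ± 125 at 24m (log2FC -0.35 ± 0.10 (SE), adjusted p = 0.015), although aged replicate 1 at 872 CPM lay within the young adult range. Its partner Uqcrc2 held 246, 292, 269 and 262 CPM at 6m and 193, 252, 204 and 284 CPM at 24m, overlapped between the ages and did not pass (log2FC -0.17 ± 0.12 (SE), adjusted p = 0.31). The log2 ratio of Uqcrc2 to Uqcrc1 spread from -2.17 in aged replicate 1 to -1.07 in aged replicate 4, and from -1.90 to -1.58 among the young adults. Cyc1 fell (log2FC -0.27 ± 0.095 (SE), adjusted p = 0.0394), again with aged replicate 1 among the young adult values. Of the 8 fits without 1 library, Cyc1 fell only in that without aged replicate 1. Uqcrb, the subunit known as the ubiquinone-binding protein, held 181, 218, 229.7 and 199 CPM at 6m and 138, 175, 166 and 215 CPM at 24m, which overlapped (log2FC -0.23 ± 0.13 (SE), adjusted p = 0.21). Uqcrfs1 did not pass (log2FC -0.12 ± 0.099 (SE), adjusted p = 0.43). The promoter of Uqcrh, printed like that of Sdhb and at chr4:115932248-115932387 (GRCm39, minus strand), holds an ETS motif, in capitals.
Uqcrh: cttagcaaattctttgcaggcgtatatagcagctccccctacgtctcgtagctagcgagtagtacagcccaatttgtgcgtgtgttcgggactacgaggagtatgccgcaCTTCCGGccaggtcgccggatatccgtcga

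Cycs, the cytochrome c that shuttles electrons from complex III to complex IV and triggers caspase activation when it leaves the mitochondrion, held 282, 308, 328 and 278 CPM at 6m and 229, 305, 280.3 and 345 CPM at 24m. Both the lowest and the highest of these values were in aged libraries, and Cycs did not pass (log2FC -0.030 ± 0.11 (SE), adjusted p = 0.88). The fitted direction turned positive under 5 of the 19 other fits.

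Complex IV held 8 fallen genes, of which 7 are subunits or isoforms that most tissues use and 1, Cox5b-ps, is a copy of Cox5b, while the isoforms best known from heart, skeletal muscle, lung or testis had few counts. The catalytic core is made in the mitochondrion, and the nuclear genes supply the surrounding subunits from Cox4 to Cox8. Their summed CPM were 17193 ± 118 at 6m and 14404 ± 558 at 24m, without overlap between the ages. These sums hold Cox5b and its copy separately, and the copy gave mean CPM of 1669 at 6m and 1382 at 24m. Fallen genes were Cox7a2, Cox8a, Cox4i1, Cox6c, Cox5b, Cox5b-ps, Cox7b and Cox7c, with log2FC from -0.37 to -0.26.

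Cox7a2, at chr9:79653049-79667162 (minus strand) and with the smallest p of the complex, held 977, 1032, 1109 and 987 CPM at 6m and 819.7, 766, 773 and 814 CPM at 24m. The 4 aged libraries lay close together and below every young adult library (log2FC -0.37 ± 0.084 (SE), adjusted p = 0.00268). Cox4i1, the ubiquitous form of the subunit through which ATP acts on the enzyme, had the highest mean count of complex IV and held 3311, 3336, 3113 and 3241 CPM at 6m and 3228, 2450.2, 2419 and 2409.7 CPM at 24m. Here aged replicate 1 stood among the young adult libraries (log2FC -0.31 ± 0.096 (SE), adjusted p = 0.0222 with it). Leaving out 1 library at a time, the log2FC ran from -0.41, without aged replicate 1, to -0.27. Cox4i1 fell in 2 of these 8 fits. Cox8a held 2410.2, 2598, 2598 and 2588 CPM at 6m and 1785, 2087, 2018 and 2203 CPM at 24m. In this gene aged replicate 1 was the lowest library of all (log2FC -0.33 ± 0.087 (SE), adjusted p = 0.00801). The promoter of Cox7a2, at chr9:79667116-79667255 (GRCm39, minus strand), holds none of the 3 motifs searched, and is shown beside those of Sdhb and Uqcrh for that reason.
Cox7a2: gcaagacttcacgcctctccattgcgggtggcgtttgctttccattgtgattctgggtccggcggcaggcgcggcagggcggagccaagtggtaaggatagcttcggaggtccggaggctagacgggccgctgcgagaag

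Cox5a and Cox5b lie on the matrix face of the enzyme. Cox5a held 790.1, 822, 779.9 and 846 CPM at 6m and 722, 700.0, 699 and 734 CPM at 24m. Every aged library was below every young adult one, yet the difference did not pass the test (log2FC -0.18 ± 0.083 (SE), adjusted p = 0.12). Cox5b held 1711, 1676, 1634 and 1658 CPM at 6m and 1466, 1270.4, 1399 and 1384 CPM at 24m, without overlap, and fell (log2FC -0.28 ± 0.083 (SE), adjusted p = 0.0184). The Cox5b value is bound to that of Cox5b-ps, a single-exon copy at chr13:21685120-21685616 that also fell (log2FC -0.27 ± 0.082 (SE), adjusted p = 0.0183). Their counts differed by 6 to 29 in each library, out of 1822 to 3569 counts on the pair, so that each row held between 49.5% and 50.5%. Only 3 of the 387 coding bases of Cox5b differ in the copy (99.2% identical), and the coding bases 184 to 243 are shown because they hold 2 of these, in capitals.
Cox5b: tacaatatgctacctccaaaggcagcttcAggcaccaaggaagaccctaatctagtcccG
Cox5b-ps: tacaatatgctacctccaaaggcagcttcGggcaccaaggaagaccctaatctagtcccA
Cox5b and Cox5b-ps are therefore read here as 1 measurement.

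Cox6c (log2FC -0.28 ± 0.088 (SE), adjusted p = 0.0235), Cox7b (log2FC -0.27 ± 0.096 (SE), adjusted p = 0.0431) and Cox7c (log2FC -0.26 ± 0.090 (SE), adjusted p = 0.0394), small membrane-spanning subunits, fell without overlap between the ages. Cox7b is encoded on the X chromosome, and its young adult libraries spanned only 489.6 to 499 CPM, against 340.3 to 469 in the aged libraries. It fell in 1 of the 8 fits without 1 library. Cox6b1, which joins the monomers of the dimeric enzyme (log2FC -0.17 ± 0.091 (SE), adjusted p = 0.20), and Cox6a1 (log2FC -0.097 ± 0.080 (SE), adjusted p = 0.42) did not pass. Under TMM scaling Cox6a1 nevertheless had all aged libraries, at 1683, 1699.5, 1753 and 1756 CPM, below all young adult libraries, at 1842, 1881, 1826 and 1822 CPM, but its log2FC was above 0 with quantile normalization (0.12 with DESeq2) and with library sizes alone (0.011). Cox7a2l, a gene known from work on supercomplexes of complexes III and IV, was nearly level (log2FC 0.0062 ± 0.10 (SE), adjusted p = 0.97). Whether its protein acts in supercomplexes in this strain was not tested.

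The tissue-restricted isoforms gave little to compare. Cox6a2, Cox7a1 and Cox8b, the heart and skeletal muscle forms, Cox6b2, the testis form, and Cox4i2, a form known from lung and from low oxygen, had mean counts between 5.88 (Cox4i2) and 28.2 (Cox6a2) per library. Cox4i2, with the highest log2FC of all members, held 7.49, 7.33, 5.05 and 3.82 CPM at 6m and 17.0, 6.33, 7.79 and 5.44 CPM at 24m. Cox8b, the next highest, held 9.99, 11.0, 11.4 and 8.91 CPM at 6m and 20.1, 12.7, 15.6 and 6.22 CPM at 24m. Aged replicate 1 was the highest library for both, the ages overlapped, and neither passed (Cox4i2 log2FC 0.52 ± 0.45 (SE), adjusted p = 0.45; Cox8b log2FC 0.31 ± 0.38 (SE), adjusted p = 0.61). Cox7a1 (log2FC -0.33 ± 0.28 (SE), adjusted p = 0.44), Cox6b2 (log2FC -0.20 ± 0.33 (SE), adjusted p = 0.71) and Cox6a2 (log2FC -0.12 ± 0.19 (SE), adjusted p = 0.71) did not pass, and at these counts only large changes would have been detectable.

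Complex V held 10 fallen genes of 19, and by part of the enzyme all 5 small subunits of the membrane part fell, against 2 of 5 in the catalytic head, 2 of 5 rows in the peripheral stalk, 1 of 3 in the c ring and 0 of 1 inhibitor. All 19 genes had a log2FC below 0, but 6 of those that did not pass (Atp5f1a, Atp5f1c, Atp5mc1, Atp5mc2, Atp5if1 and a second Atp5po identifier) were above 0 with quantile normalization and with library sizes alone. The summed CPM of the complex were 18208 ± 326 at 6m and 15343 ± 909 at 24m, without overlap between the ages. Whether the parts of the enzyme differ from each other was not tested.

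The small membrane subunits Atp5me, Atp5mf, Atp5mg, Atp5mj and Atp5mk sit around subunit a, and the first and the third of these, subunits e and g, hold the dimers that shape the cristae. Atp5me, at chr5:108581110-108582949 (minus strand), had the smallest p and the lowest log2FC of all 50 members and held 775, 785, 703 and 713 CPM at 6m and 538, 492, 550.2 and 553 CPM at 24m. Its ages were far from overlapping, and the fitted level was 28.2% lower at 24m (log2FC -0.48 ± 0.087 (SE), adjusted p = 0.000357). Atp5mj followed, with 559, 576, 555 and 643 CPM at 6m and 442, 430.1, 423 and 486 CPM at 24m, and did not overlap either (log2FC -0.39 ± 0.090 (SE), adjusted p = 0.0033). Atp5mg (log2FC -0.30 ± 0.085 (SE), adjusted p = 0.0139) and Atp5mf (log2FC -0.30 ± 0.090 (SE), adjusted p = 0.0193) fell without overlap, and Atp5mk (log2FC -0.30 ± 0.090 (SE), adjusted p = 0.0204) fell although aged replicate 4, at 739.7 CPM, lay above the lowest young adult library, at 734 CPM. The promoter of Atp5me, at chr5:108582246-108582385 (GRCm39, minus strand), holds the NRF1 letters on both strands in 1 palindromic stretch and an ETS motif just after the start site, all in capitals.
Atp5me: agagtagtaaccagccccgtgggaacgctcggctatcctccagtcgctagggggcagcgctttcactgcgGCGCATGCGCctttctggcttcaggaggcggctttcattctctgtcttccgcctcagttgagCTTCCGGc

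The catalytic head, F1, is a ring of alternating alpha (Atp5f1a) and beta (Atp5f1b) subunits around the rotating gamma (Atp5f1c), delta (Atp5f1d) and epsilon (Atp5f1e) subunits. Atp5f1b, which carries the catalytic sites and had the highest mean count of complex V, held 3138, 3081, 2902 and 3121 CPM at 6m and 2527, 2345, 2289 and 2438 CPM at 24m. It fell without overlap (log2FC -0.35 ± 0.083 (SE), adjusted p = 0.00377). Atp5f1a held 1321, 1419, 1269.5 and 1377 CPM at 6m and 1355, 1251, 1261 and 1325 CPM at 24m, overlapped between the ages, and did not pass (log2FC -0.052 ± 0.083 (SE), adjusted p = 0.70). The log2 ratio of alpha to beta was -1.19 ± 0.054 at 6m and -0.89 ± 0.021 at 24m, with every aged library above every young adult one, and this ratio does not depend on the scaling factors of the libraries. The pair was chosen after its values were seen, and the shift of 0.30 is given as a description. The ratio of gamma to beta moved by 0.31 in the same way. Atp5f1c (log2FC -0.045 ± 0.086 (SE), adjusted p = 0.75) and Atp5f1d (log2FC -0.23 ± 0.095 (SE), adjusted p = 0.0828) did not pass, and Atp5f1e fell (log2FC -0.36 ± 0.10 (SE), adjusted p = 0.0132), with aged replicate 1 at 998 CPM among the young adult libraries.

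The peripheral stalk keeps the head from turning with the rotor. Its subunits d, Atp5pd (log2FC -0.28 ± 0.088 (SE), adjusted p = 0.0253), and OSCP, Atp5po (log2FC -0.29 ± 0.089 (SE), adjusted p = 0.0218), fell without overlap. Subunit b, Atp5pb (log2FC -0.21 ± 0.093 (SE), adjusted p = 0.10), and the coupling factor Atp5pf (log2FC -0.27 ± 0.11 (SE), adjusted p = 0.0836), had similar log2FC and did not pass. Atp5pf spread from 322 CPM in aged replicate 1 to 532 in aged replicate 4, against 499 to 548 in the young adult libraries. A second Ensembl identifier also carries the name Atp5po in the annotation, shares exons with Atp5po and with the neighbouring gene Donson, and did not pass (log2FC -0.082 ± 0.088 (SE), adjusted p = 0.55). How its reads were parted from those of Atp5po is not known, and both are uncertain. Atp5if1, the inhibitor that binds the enzyme when the proton gradient fails, held mean CPM of 658 ± 21.7 at 6m and 627 ± 64.0 at 24m and did not pass (log2FC -0.071 ± 0.090 (SE), adjusted p = 0.62).

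**Figure D2:**
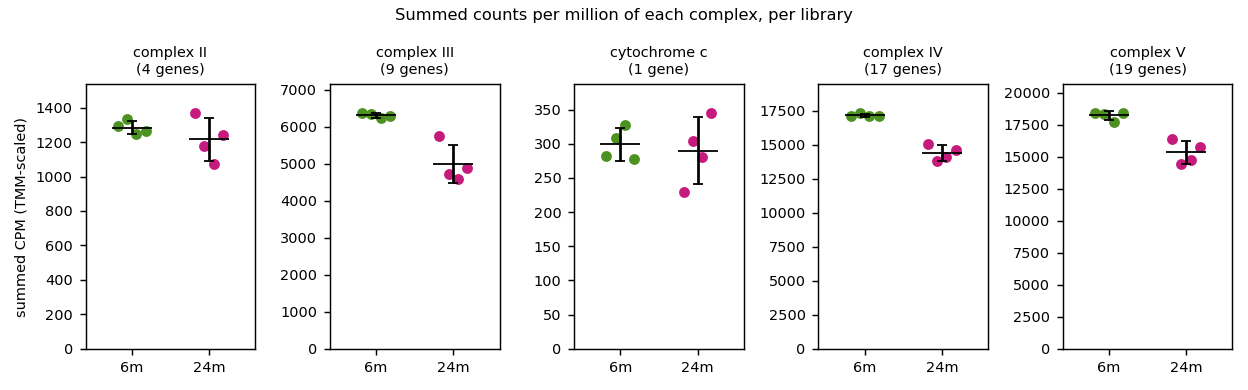
Points are the summed CPM of the members of each complex in each library (y axis from 0, TMM-scaled), and bars are the mean ± SD of 4 libraries per age. Complexes III, IV and V had every aged library below every young adult library, whereas complex II and cytochrome c overlapped. The sum of complex IV holds both Cox5b and Cox5b-ps, and that of complex V both Atp5po identifiers.

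The rotor ring of complex V is built from identical copies of subunit c, which 3 genes encode. Their precursors differ in the targeting peptide, but the last 75 codons spell the same 75 amino acids in Atp5mc1, Atp5mc2 and Atp5mc3, through coding bases that differ at 34 of 225 positions between Atp5mc1 and Atp5mc2, 45 between Atp5mc1 and Atp5mc3, and 48 between Atp5mc2 and Atp5mc3. The last 90 coding bases show how the genes can be read apart, with the 24 positions at which they are not all the same in capitals.
Atp5mc1: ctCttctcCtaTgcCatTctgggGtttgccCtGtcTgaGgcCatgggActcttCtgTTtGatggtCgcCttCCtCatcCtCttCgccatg
Atp5mc2: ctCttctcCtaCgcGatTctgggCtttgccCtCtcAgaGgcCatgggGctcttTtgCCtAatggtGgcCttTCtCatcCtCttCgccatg
Atp5mc3: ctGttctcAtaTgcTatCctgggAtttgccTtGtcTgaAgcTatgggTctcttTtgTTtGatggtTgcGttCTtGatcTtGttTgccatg
Of these, Atp5mc3 fell (log2FC -0.32 ± 0.082 (SE), adjusted p = 0.00722), from 1579, 1595, 1598 and 1562 CPM at 6m to 1332, 1226, 1194 and 1329 CPM at 24m, without overlap. Atp5mc1 (log2FC -0.029 ± 0.087 (SE), adjusted p = 0.86) and Atp5mc2 (log2FC -0.069 ± 0.092 (SE), adjusted p = 0.64) did not pass.

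Where several genes encode forms of 1 subunit, the share of each in the counts of its family was compared between the ages, since a share does not depend on the scaling factors of the libraries. For 10 shares in 6 families, an exact permutation test over the 70 ways to assign 4 of 8 libraries to 24m was used, two-sided, for which 0.029 is the smallest p. No share passed after adjustment over the 10, and 4 reached the smallest p, with an adjusted p of 0.0714. Atp5mc3 made up 58.6, 59.1, 58.0 and 57.5% of the c subunit counts at 6m and 52.2, 55.1, 53.0 and 54.4% at 24m. Its share was lower in every aged library than in any young adult one, with a mean difference of -4.66 percentage points (exact permutation p = 0.029). The shares of Atp5mc1, from 23.0% ± 0.461 to 25.8% ± 0.628, and of Atp5mc2, from 18.7% ± 0.692 to 20.5% ± 1.10, were higher without overlap (exact permutation p = 0.029 each). The 3 shares add up to the whole, so they are not independent.

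In the Cox7a family, Cox7a2l made up 24.6, 21.9, 20.1 and 26.1% of the counts at 6m and 29.0, 28.7, 28.9 and 26.2% at 24m. The ages did not overlap, although young adult replicate 4 and aged replicate 4 nearly met (exact permutation p = 0.029, adjusted p = 0.0714). The share of Cox7a2 was 75.4% ± 2.75 at 6m and 70.4% ± 1.55 at 24m, with a slight overlap (exact permutation p = 0.0571, adjusted p = 0.0952). Cox7a1 held 1.46% ± 0.0803 and 1.44% ± 0.43 (exact permutation p = 1.0). The share of Cox4i2 in its pair was 0.181% ± 0.0511 at 6m and 0.332% ± 0.134 at 24m (exact permutation p = 0.0571), and that of Cox8b 0.403% ± 0.041 and 0.691% ± 0.346 (exact permutation p = 0.14). Cox6a2, near 1.91% at 6m, and Cox6b2, near 1.30%, moved by less than 0.05 percentage points. In the Cox4, Cox6a, Cox6b and Cox8 families the rarer form held at most 2.18% of the counts in any library.

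**Figure D3:**
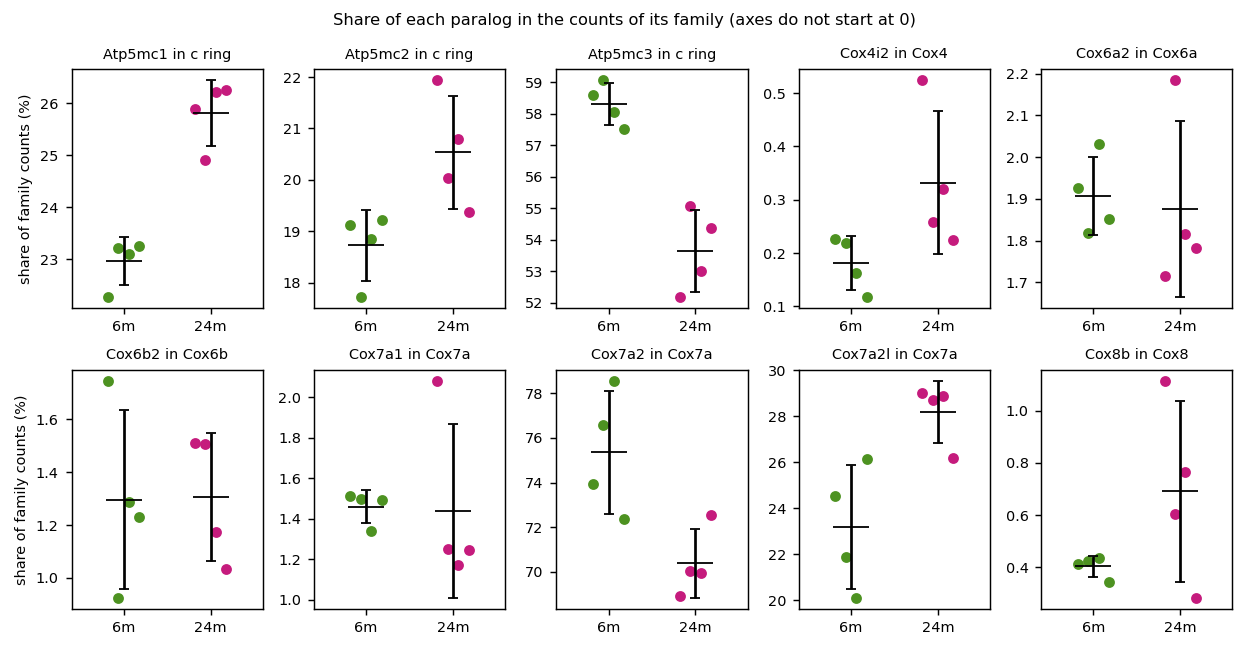
Points are the share of each gene in the summed counts of its family in each library, in percent (y axes do not start at 0), and bars are the mean ± SD of 4 libraries per age. Atp5mc3 lay between 52.2% and 55.1% at 24m, below the 57.5% to 59.1% at 6m, those of Atp5mc1, Atp5mc2 and Cox7a2l lay higher at 24m without overlap, and the other 6 overlapped.

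The aged libraries differed from each other in which members were low. Members took between 4.09% and 4.22% of the counts on tested genes in the young adult libraries and between 3.67% and 3.85% in the aged libraries. Relative to the young adult mean of each gene, the median member stood at a log2 difference of -0.14 in aged replicate 1, -0.30 in replicate 2, -0.31 in replicate 3 and -0.18 in replicate 4. Aged replicate 1 did not stand apart in 1 direction: besides its 31 highest values it held the lowest aged value for 11 members, among them Uqcrb, Cycs, Cox8a, Cox7b, Atp5pf and Atp5pb. Without this library 26 of the 50 members fell, with a median log2FC of -0.27.

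**Figure D4:**
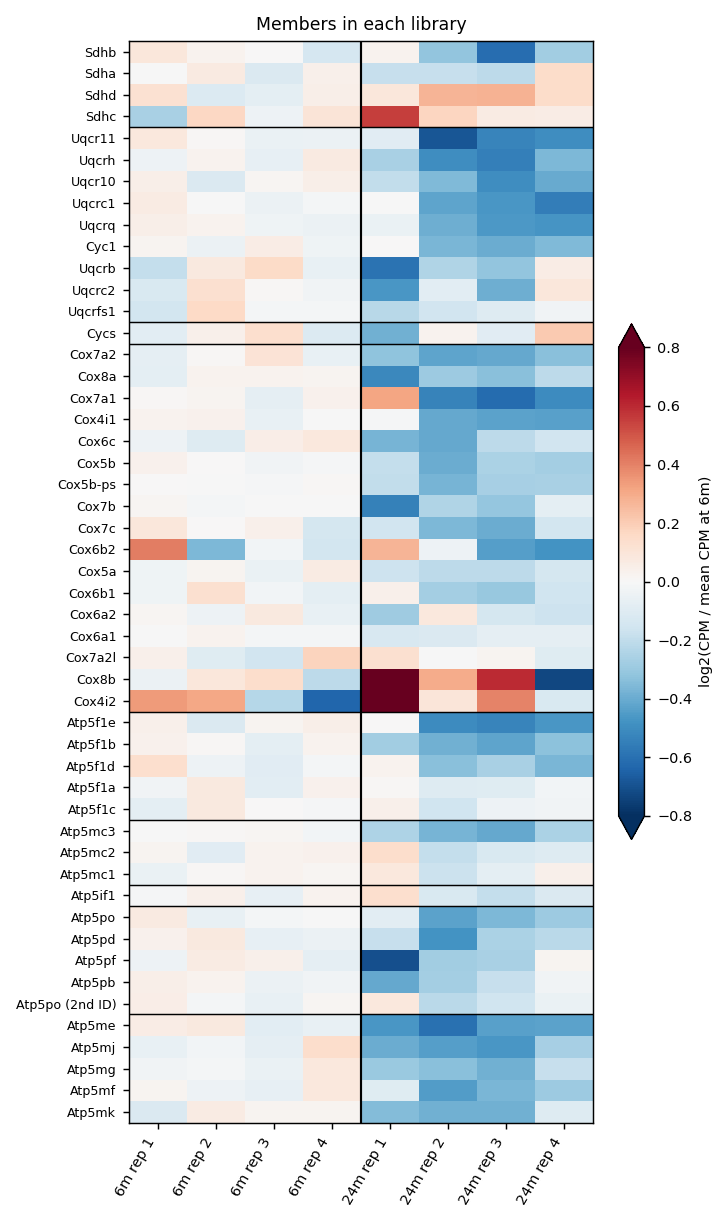
Each cell is the log2 of a member's CPM in 1 library over its mean CPM at 6m (colour scale from -0.8 to 0.8; rows are members by complex, columns are libraries). The blue columns are the aged libraries, in which aged replicate 1 is pale or red for many rows and deep blue for others.

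The members share features that the rule did not use. Their genes lie on 19 chromosomes. They are short, with a median coding length of 397.5 bases and a median of 4 exons, against 1279.5 bases and 9 exons over the tested genes with a coding length. Fallen members had a median coding length of 346.5 bases and the others 457.5. An annotated gene on the opposite strand overlaps exons of 33 members, and 10 have a near-identical transcript elsewhere in the annotation. The sources used here do not give the strand setting of the counting, so these members are uncertain. Of the 13 members without exon overlap on either strand and without such a copy, 6 fell (Cyc1, Cox7a2, Cox8a, Cox7b, Atp5f1e and Atp5mf), with a median log2FC of -0.20. Over all tested genes 9.41% fell, and among those with at least 100 counts 25.0% fell. Neither share was taken under the same limits on overlap and copies.

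Several members have a neighbour that starts close by on the other strand. For 11 of 50 members (22%), a protein-coding gene starts on the other strand within 1 kb of the member's start, upstream or downstream. Among tested protein-coding genes the share was 13.8%. Such pairs can overlap in their exons, as those named next do. Among these pairs are Sdhd with Timm8b, an import chaperone, at 69 bases, Cox4i1 with Emc8 at 52 bases, Atp5mk with Pdcd11 at 48 bases, and Atp5pf with Gabpa, which encodes an ETS factor known to act on genes of the respiratory chain, at 980 bases. RefSeq promoters, 250 bases before to 50 after the start, were at hand for 35 members and 7240 tested genes. The core letters of NRF1, GCATGCGC on either strand, were found in 8 members (22.9%; Sdhb, Uqcrc1, Uqcr11, Cycs, Cox6a1, Atp5mc2, Atp5me and Atp5mg), against 6.35% of the tested genes. Those of ETS factors, CCGGAAG, were found in 12 (34.3%) against 21.1%, and those of YY1, GCCATCTT, in 3 (8.57%; Atp5mf, Atp5pb and Atp5pf) against 5.88%. Whether matches of different motifs share bases was not tested. Of the members with a promoter, 9 of 17 fallen ones and 8 of 18 others held at least 1 of the 3. A match is a description of letters and not a binding site.

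Assembly factors of complexes II to V put the subunits together and are not part of the finished enzymes. Of 47 listed, 41 were tested and 7 fell, against 9.41% of all tested genes and 25.0% of those with at least 100 counts. Of the 41, 0 rose, against 12.3% of all tested genes, and the median log2FC was -0.19. The fallen ones were Lrpprc, which stabilises mitochondrial mRNA (log2FC -0.76, adjusted p = 0.0106), Uqcc6 of complex III (log2FC -0.74, adjusted p = 0.032), and Cox14, Coa3, Cox17, Surf1 and Higd1a of complex IV, with log2FC from -0.48 (Higd1a) to -0.32 (Cox17). Cox17 delivers copper, and Cox14 and Coa3 hold the newly made Cox1 protein. No assembly factor of complex II or V passed. Whether the shares of assembly factors and of members differ was not tested.

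Nuclear subunits of complex I, from which electrons of NADH enter the chain, were set beside the members. They were listed by symbol, as Nduf followed by a, b, c, s or v and a digit. This takes in Ndufa4 and leaves out Ndufab1. Of the 37 tested genes 17 fell, against 9.41% of all tested genes and 25.0% of those with at least 100 counts. Of the 37, 0 rose, against 12.3% of all tested genes, and the median log2FC was -0.28. The lowest log2FC was that of Ndufs1 (log2FC -0.54, adjusted p = 0.0175), whose ages overlapped, and the smallest p that of Ndufa13 (log2FC -0.54, adjusted p = 7.23e-05). Ndufa4, which is named for complex I but has been assigned to complex IV, did not pass (log2FC -0.15, adjusted p = 0.21). Among the 13 protein-coding genes of the mitochondrial genome, 8 fell, against 9.41% of all tested genes, and 0 rose, against 12.3%. The median log2FC of these 13 mitochondrial genes was -0.44. Of the catalytic subunits of complex IV made there, mt-Co1 went from 21803 ± 1906 to 14593 ± 1605 CPM (log2FC -0.58, adjusted p = 0.000289), and mt-Co2 (log2FC -0.64, adjusted p = 0.000274) and mt-Co3 (log2FC -0.43, adjusted p = 0.0035) fell too. Cytochrome b of complex III, mt-Cytb, fell (log2FC -0.44, adjusted p = 0.0145), whereas the complex V subunits mt-Atp6 (log2FC -0.20, adjusted p = 0.21) and mt-Atp8 (log2FC 0.21, adjusted p = 0.21) did not pass.

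Of the 11 transcription factors and coactivators of mitochondrial biogenesis, 7 had enough counts to be tested, with a median log2FC of 0.17. Of these 7, 0 fell, against 9.41% of all tested genes, and 0 rose, against 12.3%. Ppargc1a, Ppargc1b, Gabpa and Tfb2m were under the count limit. Nrf1 (log2FC 0.40, adjusted p = 0.57), Yy1 (log2FC 0.73, adjusted p = 0.10), Esrra (log2FC 0.17, adjusted p = 0.53) and Tfam, which packages mitochondrial DNA (log2FC -0.068, adjusted p = 0.91), did not pass, and Nrf1 held only 3 to 10 counts in a library.

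Markers of cell types also moved between the ages, and their part in the members' change was not tested. For the counts that follow, 9.41% of all tested genes fell and 12.3% rose. Of 6 neuronal markers, 5 rose and 0 fell, with summed levels from 1427 to 1548 CPM at 6m and from 2088 to 2437 at 24m. Of 6 oligodendrocyte markers 4 rose and 0 fell, with sums from 1896 to 2472 CPM at 6m and from 2592 to 3498 at 24m. Astrocyte markers gave 3 risen (Gfap, Slc1a3 and Gja1) and 1 fallen (Slc1a2) of 5 tested, with sums from 2263 to 2759 CPM at 6m and from 2309 to 3033 at 24m, and microglial markers 2 risen (C1qa and Tmem119) and 0 fallen of 4 tested, with sums from 401 to 446 CPM at 6m and from 499 to 702 at 24m. All 5 blood genes fell, with sums from 6176 to 10171 CPM at 6m and from 3398 to 6375 at 24m. Endothelial markers summed to values from 91.7 to 121 CPM at 6m and from 66.9 to 96.0 at 24m, with 1 of 2 tested fallen, choroid plexus markers to values from 3128 to 4663 CPM at 6m and from 2420.2 to 4672 at 24m, with 1 of 3 fallen, and cerebellar granule cell markers to values from 62.3 to 151 CPM at 6m and from 170.3 to 227 at 24m, with 2 of 5 risen. Markers of heart and skeletal muscle summed to values from 27.5 to 54.3 CPM at 6m and from 35.8 to 57.2 at 24m, Actc1 had no count in any library and the rest but Acta1 were too low to test. The neuronal, glial and blood lists had counts in every library of the labelled brain tissue.

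The scaling set how much of the members' change passed the test. With RLE or upper quartile factors 24 members fell, as with TMM, against 9.31% and 9.48% of tested genes. DESeq2 on the raw counts gave 21, against 5.26%, with a median log2FC of -0.27. With library sizes alone 10 members fell, against 5.01% of tested genes, and the median of the members stood -0.26 from that of all tested genes, beside -0.27 under TMM. Quantile normalization, which gives every library the same distribution of values and which the study's methods apply before the test, moved the result most. Under it DESeq2 called 3 members as fallen, against 4.69% of tested genes, and limma-voom called 5, or 10% of the members, against 9.16% of tested genes. The 3 were Uqcrh, Atp5me and Atp5mj, and limma-voom added Uqcr11 and Uqcr10. The median log2FC of the members was then -0.095 with DESeq2 and -0.082 with limma-voom, beside -0.054 and -0.051 for all tested genes, and 36 and 37 of the 50 were below 0. The direction of each of the 24 fallen members was the same under all 19 other fits. These fits reuse the libraries by which the 24 were chosen, so a kept direction is not independent evidence.

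**Figure D5:**
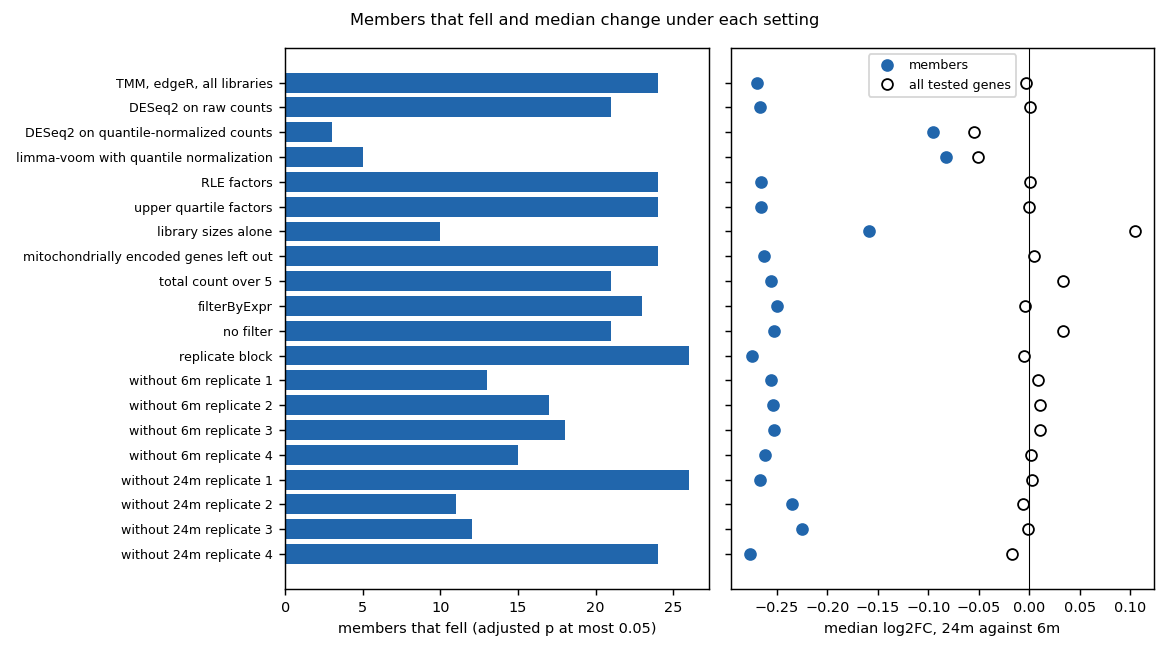
Bars are the number of the 50 members that fell at an adjusted p of at most 0.05 under each setting (48 members were tested under filterByExpr), and points are the median log2FC of the members (filled) and of all tested genes (open). The median of the members lay below that of all tested genes in every setting drawn, by the least under quantile normalization.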

How the data were processed

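Raw read counts per gene were deposited by the authors for 8 libraries, 4 at 6m and 4 at 24m, 1 library per mouse. According to the methods, direct RNA reads of a MinION run were mapped to GRCm39 with minimap2 (version 2.24 in the submitters' processing notes) and counted per gene with featureCounts; the strand and overlap settings are not given in the sources used here. The quantile and row-wise median normalization that the authors applied later is not part of these counts. Symbols, positions and exon overlap were taken from GENCODE vM39, which matched 22281 of 22430 identifiers. Near-identical transcripts were searched with BLAST+ 2.17.0 (at least 95 percent identity over at least 50 percent of the canonical transcript), and promoters are those of RefSeq (table of GRCm38.p6), with the printed ones placed on GRCm39 by exact match.

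Genes whose mean count exceeded 5 were fitted with edgeR 4.0.16 in R 4.3.3 (TMM, quasi-likelihood test, age as the only term, Benjamini-Hochberg adjustment over all 9375 genes). Standard errors came from the log2FC and the F statistic. Other fits used DESeq2 1.42.0 and limma 3.58.1, other scalings and filters, a replicate block and leaving out each library. Some of the fits were also run on simulated counts, with planted changes larger than those of the members. That run does not show how well changes of the members' size are found. Library totals ran from 573152 to 1255424 counts, and TMM factors from 0.958 to 1.07. Members, gene lists, tests and named genes were chosen with earlier results of these data known. Every member is named. Values in every library are given for members the study names, for Cycs and for some, not all, of the tested paralogs. They are also given for the smallest p in each direction and the highest mean count in each complex, and for the extremes of log2FC. The limits of 100 counts and 500 bases and the ratios were added after seeing the data. So was the count without Cox5b-ps and the second Atp5po identifier.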

Additional observations from a re-analysis of the deposited data

Results flagged for a closer look

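In 16 of 128 sets of 4 libraries, 1 library stood apart from the other 3 of its age by Dixon's test. Chance alone flags about 1 in 20 independent sets. The 128 sets share libraries and counts, so the 16 cannot be held against that rate. Aged replicate 1 was the library in 6 of the 16. It was high in CPM for Uqcrq (967 against 725 to 764 in the other aged libraries), Cyc1 (639 against 484 to 498), Cox4i1 (3228 against 2409.7 to 2450.2), Atp5f1e (998 against 692 to 723) and Cox7a1 (24.7 against 13.0 to 14.0), and in the share of Cox7a1 in its family (2.08 against 1.17 to 1.25%). Of these genes, Uqcrq, Cyc1, Cox4i1 and Atp5f1e fell in the test with this library included.

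Aged replicate 4 was high in CPM for Sdha (387 against 302 to 308) and Atp5mk (739.7 against 609 to 623), and low in the share of Cox7a2l (26.2 against 28.7 to 29.0%). Among the young adults, replicate 1 was low in CPM for Cox8a (2410.2 against 2588 to 2598) and in the share of Atp5mc1 (22.3 against 23.1 to 23.3%). Young adult replicate 2 was low in CPM for Atp5f1e (921 against 1012 to 1030.2) and Atp5mc2 (479 against 515 to 522) and high in the summed CPM of complex IV (17369 against 17118 to 17159). Young adult replicate 3 was low in the summed CPM of complex V (17723 against 18321 to 18421) and in the share of Cox7a1 (1.34 against 1.49 to 1.51%). Why these libraries stand apart was not tested.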

How the results depend on the processing

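Of 948 log2FC of members under other settings, 779 kept their direction and their side of the threshold, 126 lost the call, 9 gained one and 34 turned their direction, none of them in a member that fell. The count of fallen members, 24, was 3 with DESeq2 on quantile-normalized counts, 5 with limma-voom with quantile normalization, 10 with library sizes alone, 6 among the members without exon overlap or a near-identical copy (fewer genes counted), and 0 with the further limit on the log2FC. Their median log2FC, -0.27, was then -0.095, -0.082, -0.16 and, in the fourth of these, -0.20. Risen members numbered 0, and 1 with library sizes alone. Over all genes, 882 genes fell and 1155 rose; these became 493 and 734 with DESeq2 on raw counts, 440 and 669 with DESeq2 on quantile-normalized counts, 470 and 1465 with library sizes alone, and 390 fallen with the limit on the log2FC. Leaving out 1 library at a time gave 11 to 26 fallen members, 522 to 1156 fallen genes and 833 to 1379 risen genes. Apart from the construction of the settings, the cause was not tested. Members that did not pass changed sign as follows: with DESeq2 on quantile-normalized counts Cycs 0.0075, Cox6b1 0.015, Cox6a1 0.12, Atp5f1a 0.15, Atp5f1c 0.064, Atp5mc2 0.021, Atp5mc1 0.046, Atp5if1 0.020, Atp5po (second identifier) 0.090; with limma-voom with quantile normalization Cycs 0.025, Cox6b1 0.021, Cox6a1 0.13, Cox8b -0.032, Atp5f1a 0.16, Atp5f1c 0.072, Atp5mc2 0.013, Atp5mc1 0.054, Atp5if1 0.021, Atp5po (second identifier) 0.091; with library sizes alone Sdha 0.019, Cycs 0.082, Cox6a1 0.011, Atp5f1a 0.054, Atp5f1c 0.062, Atp5mc2 0.036, Atp5mc1 0.077, Atp5if1 0.035, Atp5po (second identifier) 0.023. Leaving out 1 library, the log2FC ran from -0.13 to 0.073 for Cycs, -0.038 to 0.079 for Cox7a2l and -0.055 to 0.019 for Atp5mc1, and the differences in share, in percentage points, from -0.13 to 0.021 for Cox6a2, -0.11 to 0.16 for Cox6b2 and -0.24 to 0.066 for Cox7a1. Shares passing the adjusted test numbered 0 with either measure.

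The replicate numbers showed no sign of pairing. Correlations of same-numbered libraries' deviations from the age means were 0.065, -0.010, 0.005, -0.16, and 0 of 4 numbers matched best with each other. Whether same-numbered libraries shared a day or a run is not known. With the number as a replicate block, 26 members fell, with a median log2FC of -0.28, and 847 and 1129 genes of the table fell and rose; Sdhb was then called (log2FC -0.29, adjusted p = 0.0347). Depth limits the members with few counts, Cox4i2, Cox8b, Cox6b2, Cox7a1 and Cox6a2, whose standard errors were 0.19 to 0.45 on the log2 scale.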

Other observations

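Log2 ratios between members of the chain were chosen after the values were seen and are given without a test. The log2 ratio of Cycs to Cyc1 was -1.09 ± 0.10 at 6m and -0.87 ± 0.42 at 24m (SD, n = 4 libraries per age), and ran from -1.48 in aged replicate 1 to -0.53 in aged replicate 4. The log2 ratio of Sdhb to Sdha was 0.75 ± 0.13 at 6m and 0.56 ± 0.30 at 24m, and that of Cox5a to Cox4i1 was -2.01 ± 0.054 at 6m and -1.87 ± 0.20 at 24m. In each of these 3 the ages overlapped and the SD was larger at 24m, as it was for Uqcrc2 to Uqcrc1, whereas the ratios of Atp5f1a to Atp5f1b (-1.19 ± 0.054 at 6m and -0.89 ± 0.021 at 24m) and of Atp5f1c to Atp5f1b (-2.20 ± 0.092 at 6m and -1.90 ± 0.065 at 24m) had the smaller SD at 24m.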
